A study of Mus musculus with 5 samples.

Results

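Cycling tumor epithelial cells were chosen by their own transcripts, in single-cell RNA sequencing of MMTV-PyMT mammary tumors. A cell was kept when it held 2500 to 27500 unique transcript counts (UMIs) over genes, with at most 20% from mitochondrial genes. It was called epithelial when Epcam, Krt8 and Krt18 together gave at least 5 UMIs and the leukocyte gene Ptprc gave 0. It was called cycling when Mki67, Top2a, Birc5, Cenpf, Hmmr and Ccnb1 together gave at least 4 UMIs from at least 2 of the 6 genes. Of 30340 deposited cells, 19533 were kept, 13412 were epithelial and 458 were cycling, 3.41% of the epithelial cells. The other 12954 epithelial cells of the same tumors served as the reference.

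All mice were MMTV-PyMT animals on the FVB background, in which the promoter of a mammary tumor virus expresses a polyomavirus oncogene, middle T, in the mammary gland, so that tumors arise spontaneously. From 7 weeks of age they received either the antibody B20-4.1.1, which blocks VEGF-A, or an isotype IgG2a control, each at 5 mg/kg by intraperitoneal injection 2 times per week for 6 weeks. Dissociated tumors were sorted for viable DAPI-negative cells before and after oligonucleotide labeling, and 3 tumors of different mice went into each of 5 pools. Isotype tumors filled 2 pools (6 tumors), and those under B20-4.1.1 (B20) filled 3 (9 tumors). Each tumor counted as 1 replicate. Since no pool mixed the treatments, treatment and pool cannot be told apart.

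A dividing cell copies its DNA in S phase, with helicases of the MCM family and enzymes that supply deoxynucleotides, and separates the copies in mitosis, with cyclin-dependent kinase 1, the kinetochores and the spindle. The genes of the first program are controlled to a large part by E2F factors, and those of the second by the DREAM complex and by B-MYB and FOXM1, which act through CCAAT boxes and a sequence called the cell cycle genes homology region. In the mammary gland, milk protein genes mark secretory differentiation. PyMT tumor cells keep part of that program.

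The rule genes belong to the second program. Mki67 coats mitotic chromosomes, Top2a untangles DNA, Birc5 (survivin) is part of the chromosomal passenger complex, Cenpf sits at the kinetochore, Hmmr binds the spindle and Ccnb1 is the cyclin of mitotic entry. The 250 bases before the RefSeq start site of 3 of them are shown on build GRCm38.p6, because they hold the mitotic promoter letters most often among the 6. In these, capitals mark CCAAT (or ATTGG, its reverse complement) and TTTGAA (or TTCAAA), the letters of the homology region. Also shown are 2 promoters of the replication program, Mcm6 (a subunit of the replicative helicase) and Hells (a chromatin remodeler of S phase). In them capitals mark only the E2F letters TTTGGCGC, TTTCGCGC, TTTCCCGC or TTTGGCGG on either strand. They were chosen because they hold these letters, as the 2 such replication genes with the largest difference between the cell states. The Mcm6 promoter is at chr1:128359706-128359955 on the minus strand and that of Hells at chr19:38930740-38930989 on the plus strand. Those of Mki67, Top2a and Hmmr are at chr7:135716380-135716629, chr11:99024190-99024439 and chr11:40733438-40733687, all on the minus strand.
Mki67: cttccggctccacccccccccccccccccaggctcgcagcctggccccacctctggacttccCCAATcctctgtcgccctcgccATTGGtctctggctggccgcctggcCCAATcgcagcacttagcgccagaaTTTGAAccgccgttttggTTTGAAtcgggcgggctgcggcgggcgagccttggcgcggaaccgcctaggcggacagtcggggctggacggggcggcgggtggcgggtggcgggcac
Top2a: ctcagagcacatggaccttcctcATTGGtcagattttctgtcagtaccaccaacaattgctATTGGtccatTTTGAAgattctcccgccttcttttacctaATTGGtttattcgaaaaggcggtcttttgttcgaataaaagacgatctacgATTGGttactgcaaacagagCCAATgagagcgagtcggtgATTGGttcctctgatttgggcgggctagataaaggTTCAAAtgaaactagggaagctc
Hmmr: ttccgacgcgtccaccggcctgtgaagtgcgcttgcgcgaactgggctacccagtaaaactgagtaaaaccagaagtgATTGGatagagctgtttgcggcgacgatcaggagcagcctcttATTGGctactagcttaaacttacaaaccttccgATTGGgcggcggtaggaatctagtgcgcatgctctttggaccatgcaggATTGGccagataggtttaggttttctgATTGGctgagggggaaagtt
Mcm6: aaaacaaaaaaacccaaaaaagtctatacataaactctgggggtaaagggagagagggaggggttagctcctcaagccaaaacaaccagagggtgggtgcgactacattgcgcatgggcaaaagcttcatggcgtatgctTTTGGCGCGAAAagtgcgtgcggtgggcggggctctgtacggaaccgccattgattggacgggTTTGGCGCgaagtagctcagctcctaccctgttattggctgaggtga
Hells: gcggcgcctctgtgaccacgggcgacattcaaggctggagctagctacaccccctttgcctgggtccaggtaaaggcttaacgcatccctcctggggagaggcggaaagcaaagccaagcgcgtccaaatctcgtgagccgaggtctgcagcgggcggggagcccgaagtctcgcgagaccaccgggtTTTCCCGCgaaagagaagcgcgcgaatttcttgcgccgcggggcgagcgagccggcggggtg

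The Top2a window held 6 CCAAT and 2 TTTGAA matches, that of Mki67 3 and 2, and that of Hmmr 5 and 0, whereas the Birc5 window held neither. Cenpf and Ccnb1 each held 2 CCAAT matches, as did Mcm6, where they are not in capitals. Over the 3 mitotic gene lists used below (62 of 71 genes matched to RefSeq, 69 promoters), CCAAT was found in 71.0%, at least 2 copies of it in 40.6%, and TTTGAA in 36.2%. Over the replication list (36 of 46 genes, 43 promoters) these shares were 55.8%, 30.2% and 11.6%, and over all 32851 promoters they were 33.8%, 10.1% and 16%. The E2F letters were in 27.9% of replication promoters, 4.35% of mitotic ones and 1.96% of all. Among promoters of genes that are described below as lower in cycling cells, CCAAT was in 47.1%, at least 2 copies of it in 11.8% and TTTGAA in 5.88% for the immediate-early list (17 promoters), and in 43.8%, 6.25% and 25% for the milk list (16 promoters). These small sets thus lay above all promoters in some of the shares too. A match of letters is a description and not a binding site.

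The values that selected the cells were as follows. Mki67 was detected in 89.5% of the 458 cycling cells and in 4.11% of the other epithelial cells, Birc5 in 82.5% and 2.39%, Cenpf in 72.1% and 1.15%, Hmmr in 63.3% and 0.618%, Top2a in 53.7% and 3.51%, and Ccnb1 in 44.3% and 0.556%. A cycling cell held between 4 and 150 UMIs of these genes, with a median of 13. All 6 genes were detected in 86 cycling cells and only 2 of them in 75. The selected cells held 93.8% of all Hmmr UMIs of epithelial cells but 71.7% of those of Top2a, so the cells left out still carried part of the program.

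Higher mean levels of cell cycle transcripts did not begin at the boundary of the rule. Whether the means come from graded cells or from a mix of cells was not tested. To compare cells of unequal depth, each cell was thinned to 2500 UMIs. Before thinning, the median depth was 8263.5 UMIs in cells with 0 rule-gene UMIs, 12773 with 3 and 16784 with at least 10. Cells with 3 rule-gene UMIs, just outside, numbered 91 and held 12.1 UMIs per 10000 of the replication list and 10.6 of the mitotic lists without rule genes. The 48 cells with 4 rule-gene UMIs, of which 41 met the rule, held 19.5 and 14.1. In the 11518 epithelial cells with none, the levels were 4.34 and 4.75, and in the 276 with at least 10 they were 25.4 and 60.1. From 4 UMIs upward the replication level was thus higher by less than the mitotic level, which belongs to the program that the rule counted. Outside the rule, 165 other epithelial cells (1.27%) had a replication level at or above the median of the cycling cells, both taken per 10000 UMIs without thinning. Whether depth or stage kept them out was not tested.

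**Figure D1:**
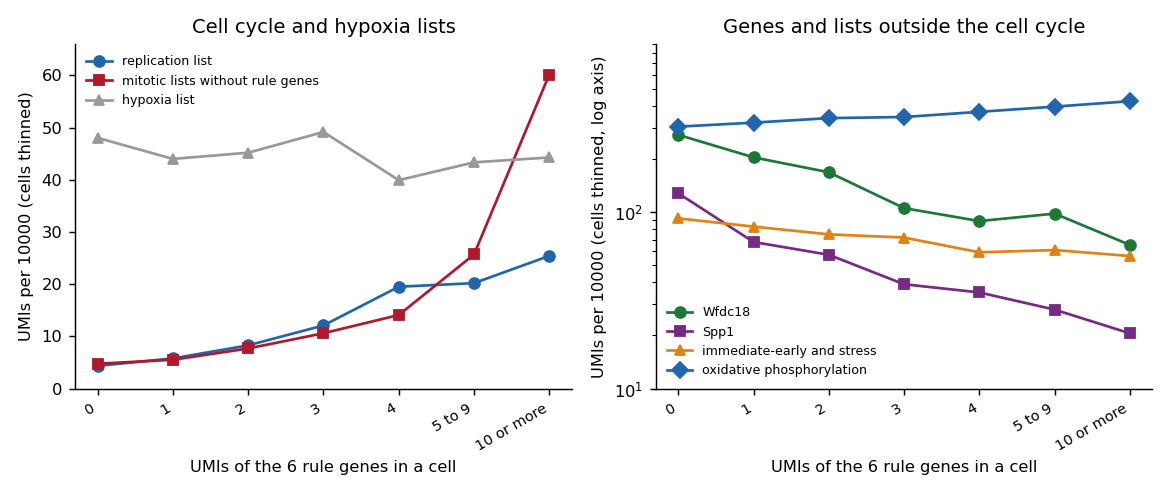
Mean UMIs per 10000 in epithelial cells thinned to 2500 UMIs (y axis, linear at left and logarithmic at right), by the number of UMIs of the 6 rule genes in the cell (x axis). Replication and mitotic lists rose from 4.34 and 4.75 to 25.4 and 60.1, the hypoxia list stayed between 39.9 and 49.1, and Spp1 and Wfdc18 were lower in each step up to 4 rule-gene UMIs.

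Members varied in their balance of replication and mitotic transcripts. Replication UMIs made up a median of 31.7% of a member's replication and mitotic UMIs (quartiles 19.8% and 49.9%), and 117 members (25.5%) had at most 20% whereas 11 (2.40%) had at least 80%. The rule counts mitotic transcripts, so this balance describes the selection and gives no cell cycle stage.

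Depth and marker genes bear on every comparison below. Cycling cells had a median of 14925 UMIs and 3750 genes against 8545 UMIs and 2641 genes in other epithelial cells, and 49.3% against 15.6% held over 15000 UMIs. The cell's own tumor oligonucleotides made up a median of 86.9% of its oligonucleotide UMIs against 89.7%. Beyond thinning cells and leaving out the deep ones, the part of depth and of droplets with more than 1 cell in the results was not tested. The 12 epithelial identity genes, which include the 3 that selected epithelial cells, gave 64.4 UMIs per 10000 in cycling cells and 86.9 in the others, lower in all 9 tumors with at least 20 cycling cells. This level was in part set by the selection. Markers of other cell types were low. The 9 macrophage markers summed to 0.542 per 10000 against 0.672 (0.196 to 2.91 per tumor in cycling cells, 0.320 to 1.32 in the others), and the 9 T cell markers to 0.121 against 0.177. The 5 endothelial markers summed to 0.0192 against 0.0284, with Cdh5, Emcn and Eng at 0 in cycling cells, and the 7 fibroblast and mural markers to 0.0311 against 0.201. The 5 B cell markers summed to 0.0148 against 0.0182, with Cd79b and Ms4a1 at 0. Neutrophil markers (4 genes) were at 2.09 against 1.51 and were higher in cycling cells in 6 of 9 tumors.

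Isotype pool 1 stood apart in depth, as 5773 of its 11026 deposited cells fell under the UMI minimum, and its median mitochondrial share in cycling cells was 6.15% to 6.97% per tumor against 2.34% to 4.51% elsewhere. No barcode was shared by tumors of a pool, and 94 were shared over the 90 pairs of tumors of different pools, 0 to 7 each.

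The first question was whether treatment went with a change in how many epithelial cells were cycling. Their share was lower under B20. In isotype pool 1 the tumors had 2.61%, 3.59% and 3.23% cycling cells and in isotype pool 2 they had 4.64%, 5.79% and 4.61%. In B20 pool 1 the shares were 2.12%, 2.02% and 2.46%, in B20 pool 3 they were 3.09%, 3.57% and 2.51%, and in B20 pool 2 they were 0.408%, 1.91% and 0% (0 of 80 cells, which allows up to 3.75%). The 2 isotype pools did not overlap each other, and isotype pool 1 overlapped B20 pool 3. The group means were 4.08% ± 1.15 (SD, n = 6) and 2.01% ± 1.16 (SD, n = 9), a difference of -2.07 percentage points (exact two-sided permutation test over 5005 splits, p = 0.0038, adjusted p = 0.0152 over 4 tests). All 9 B20 tumors were below the isotype mean and 7 were below the lowest isotype tumor. With cells thinned to 2500 UMIs and at least 2 rule-gene UMIs required, the means were 3.03% ± 0.709 and 1.3% ± 0.729 and the groups did not overlap (isotype at least 2.42%, B20 at most 2.14%; exact permutation p = 0.0002, the smallest possible). With 4 required in thinned cells the difference was -0.964 points (exact permutation p = 0.0072). The groups then overlapped, with isotype at least 1.19% and B20 at most 1.76%.

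The difference in share rested on the pools. Without isotype pool 2 it was -1.13 points (exact permutation p = 0.0955). Without B20 pool 1 or B20 pool 2 it was -2.16 and -1.45 points, with adjusted p of 0.0606 and 0.0693 (exact permutation tests). Without isotype pool 1 it was -3.0 points. With the pool as the unit it was -2.09 points (p = 0.2 in an exact permutation test, which could not go below 0.1 with 2 against 3 pools). Among cells whose own oligonucleotides made up at least 90% it was -1.42 points (exact permutation p = 0.0837). Counting intervals were wide in the small tumors, such as 0.396% to 5.48% for 3 of 157 cells in B20 pool 2 tumor 3 (exact 95% binomial interval, which covers counting error only). The upper UMI limit removed 106 isotype and 269 B20 cells of all types, and cycling cells were the deeper ones. The same 6-gene rule was met by 205 of 3799 leukocytes (5.40%, median 4496 UMIs) and by 3 of 164 B cells (1.83%, exact 95% interval 0.379% to 5.25%, median 3497 UMIs), which may themselves divide. That interval includes the epithelial share, and the part of free RNA was not tested.

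**Figure D2:**
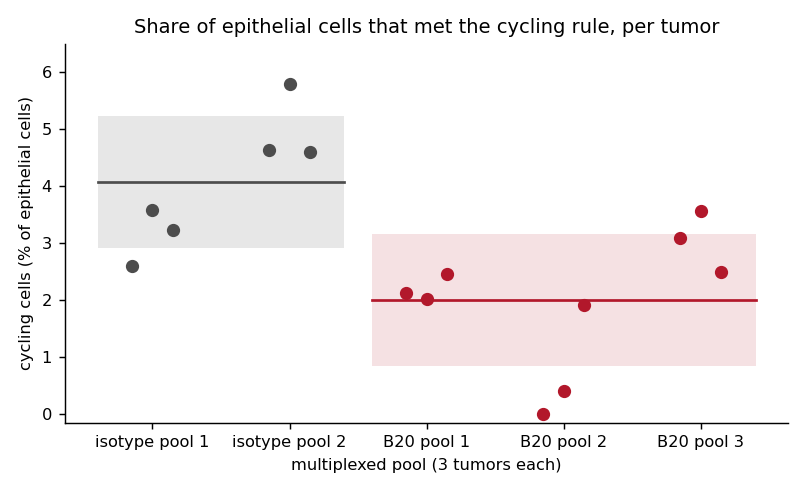
Cycling cells as a percent of epithelial cells (y axis) in each tumor (points) by pool (x axis), isotype in gray and B20 in red. Lines are group means, 4.08% and 2.01%, and bands are ± 1 SD over tumors, and isotype pool 2 holds the 3 highest tumors.

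Within a tumor, cycling and other epithelial cells differed well beyond the cell cycle. UMIs were summed per tumor and state, scaled to CPM, the counts per 1000000 UMIs of that sum, and compared as log2(CPM + 10) in the 9 tumors with at least 20 cycling cells, 6 isotype and 3 from B20 pool 3. Because the rule chose the cells, these differences are given as a description with no test. A gene was counted when its median difference over tumors was at least 1 in size with the same sign in every tumor. Of 8501 genes, 301 (3.54%) were higher by this count and 123 (1.45%) lower, whereas 18.5% were higher and 13.1% lower in every tumor at any size. The median over all genes was 0.0047, and the central 90% of genes lay between -0.68 and 0.84.

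Genes of mitotic entry and exit were higher in nearly every case, 22 of 24 by the count, with a list median of 2.06. Ccnb2, a mitotic cyclin, was at 121 CPM in cycling cells and 1.84 CPM in the others (medians over tumors), a log2 difference of 3.57. Cdk1, its kinase, was between 46.4 and 130 CPM in cycling cells and between 2.67 and 5.6 CPM in the others, with no overlap over tumors. Cdc20 (3.46) and Ube2c (3.20), which drive the destruction of cyclins, were higher by similar amounts, and Plk1 (2.16), Aurkb (1.61) and Aurka (1.58), the polo-like and aurora kinases, by less. Bub3 (0.37) and Fzr1 (0.27), which also act outside mitosis, were the members that missed the count.

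The structures of mitosis moved with the kinases. Kinetochore and centromere genes were higher in 18 of 19 cases (list median 1.99), among them Cenpa, the centromeric histone, at 164 against 4.89 CPM, and Cdca8 (3.24) of the passenger complex. Spindle and cytokinesis genes were higher in 24 of 27 (median 2.02), with Tpx2, a spindle assembly factor, at 113 against 1.67 CPM and the midzone protein Prc1 at a difference of 2.95. Chromosome structure genes were higher in 14 of 18 (median 1.62). H2afz, a histone variant, varied little between tumors, with a difference of 2.56 ± 0.061 (SD, n = 9), from 368 to 2123 CPM. Hmgb2, a chromatin protein, went from 83.5 to 1269 CPM. Hist1h1b, at 262 against 5.14 CPM, is a replication-dependent histone whose mRNA mostly lacks a poly(A) tail, so its level under 3′ capture is uncertain.

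The replication program was present as well, although the rule gave it no weight. By the count, 41 of 45 genes were higher (list median 1.54, range 0.82 to 3.08), and 44 were higher in every tumor. Their summed level was 2509 CPM in cycling cells and 457 CPM in the others. Rrm2, a subunit of ribonucleotide reductase, went from 2.99 to 97.8 CPM, Hells from 11.8 to 131 CPM and Mcm6 from 3.94 to 71.2 CPM. Ccne1, the cyclin of S phase entry, was higher in 8 of 9 tumors (1.49) and so was not counted. DNA repair genes were higher in 10 of 15 cases (median 1.18), with Brca1 at 1.74. Among transcription factors of the cycle 4 of 8 were counted, namely E2f8 (1.45), Foxm1 (1.26), Tfdp1 (1.14) and Mybl2 (1.03).

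**Figure D3:**
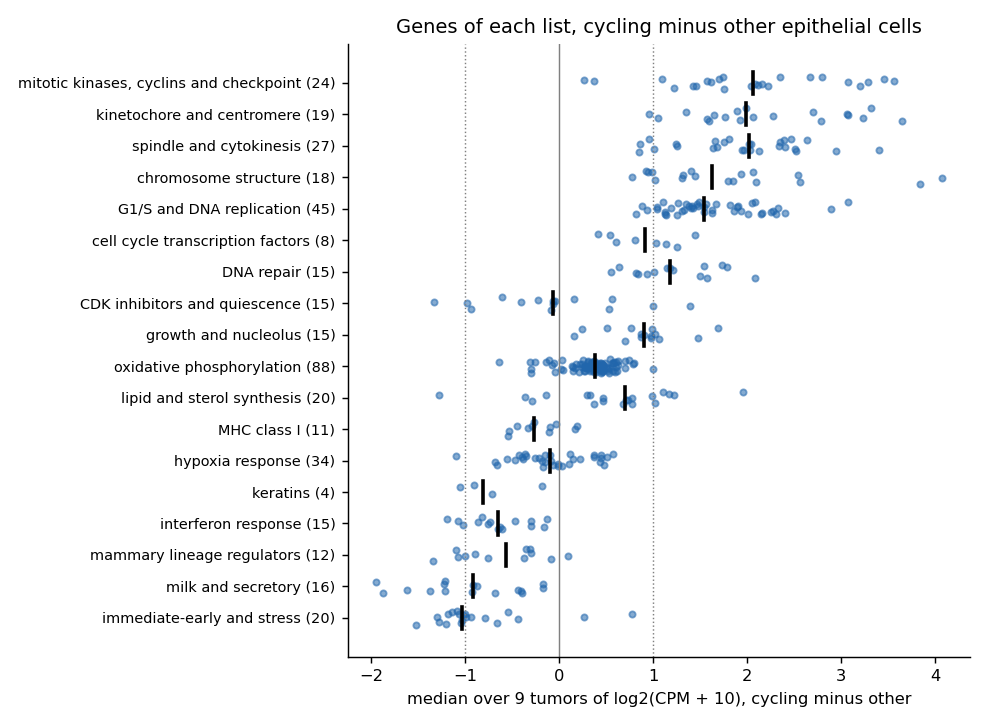
Each point is a gene, placed by its median over 9 tumors of the difference in log2(CPM + 10), cycling minus other epithelial cells (x axis), by gene list (y axis, number of genes in parentheses). Black bars are list medians, which run from 2.06 for mitotic kinases and cyclins to -1.03 for immediate-early and stress genes, and dotted lines mark a difference of 1 in either direction.

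In the list of CDK inhibitors and quiescence genes, 1 of 15 was counted higher and 1 lower, with a median of -0.07, and the summed level was lower in cycling cells in all 9 tumors (935 against 1256 CPM, log2 differences of -0.51 to -0.15). Ccnd1, cyclin D1, which links growth signals to the cell cycle, was the higher one, at 1.39 ± 0.47 (SD, n = 9). In cycling cells it was at 440, 267 and 269 CPM in isotype pool 1, at 149, 129 and 161 CPM in isotype pool 2, and at 114, 264 and 273 CPM in B20 pool 3. In the other cells of the same tumors it was at 162, 151 and 144 CPM, at 68.0, 53.5 and 55 CPM, and at 33.8, 58.6 and 55.6 CPM. Each tumor thus had more in its cycling cells, while among other cells isotype pool 1 stood above the remaining pools. By rule-gene UMIs in thinned cells, Ccnd1 went from 0.666 per 10000 in cells with none to 2.99 in cells with 3 and then to 1.71 in cells with at least 10. Btg2, an antiproliferative gene, was at 137 against 398 CPM, and Rb1, the retinoblastoma protein, was lower in all 9 tumors (-0.93). The inhibitors Cdkn1a (p21) and Cdkn1b (p27) were at -0.09 and -0.05.

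Growth and metabolism genes were mostly higher, by smaller amounts. In the growth and nucleolus list 4 of 15 were counted and 13 were higher in every tumor (median 0.90), with Ran, a nuclear transport GTPase, at 1.69 and Myc at 0.16. Oxidative phosphorylation genes had none past the count, yet 64 of 88 were higher in every tumor (median 0.38), and ribosomal protein genes had a median of 0.12. Lipid and sterol genes were mostly higher, with a positive median in 16 of 20, 5 counted higher and 1 lower, and a summed level that was higher in all 9 tumors (median log2 difference 0.30). Idi1, of the mevalonate pathway, was at 157 against 30.5 CPM, and Cyp51, Fdps and Insig1 were at 1.22, 1.17 and 1.10, whereas Scd1, a fatty acid desaturase, was at 81.5 against 239 CPM.

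Milk and secretory genes were lower in cycling cells. In the milk and secretory list 7 of 16 genes were counted as lower and none as higher, with a median of -0.92 and a summed level of 35769 CPM against 75350 CPM. Spp1, which encodes the secreted protein osteopontin, was at 2643, 3255 and 2937 CPM in cycling cells of isotype pool 1, at 1001, 1366 and 2378 CPM in isotype pool 2, and at 1825, 2352 and 4564 CPM in B20 pool 3. In the other epithelial cells it was at 8999, 8519 and 7337 CPM, at 7798, 8220 and 10235 CPM, and at 5730, 15091 and 17576 CPM. The 2 states did not overlap over these 9 tumors, and the median difference was -1.94 ± 0.58 (SD, n = 9). In the 2 tumors of B20 pool 1 with 18 and 16 cycling cells, Spp1 was at 1926 and 3632 CPM against 14873 and 14900 CPM.

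The lower Spp1 level did not begin at the boundary of the rule. In thinned cells it went from 128 UMIs per 10000 with no rule-gene UMI to 67.8, 57.4 and 39.0 with 1, 2 and 3, and to 20.6 with at least 10. With other cells matched in depth to the cycling cells the median difference was -1.70, and with all cells thinned it was -2.42.

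Wfdc18, a secreted whey acidic protein family member, was at 7133 against 29548 CPM (-1.87 ± 0.44, SD, n = 9). Lalba (alpha-lactalbumin) was at -1.37, Ltf (lactoferrin) at -1.61, and Wap (whey acidic protein) at -0.92, while Csn3, a casein, was at -0.40 and lower in 8 of 9 tumors. Regulators of the mammary lineage were counted lower in 3 of 12 cases, namely the noncoding RNA Pinc (-1.34), the receptor Kit (-1.08) and Sox9 (-1.0), while Elf5, the factor of the alveolar lineage, was at -0.30.

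**Figure D4:**
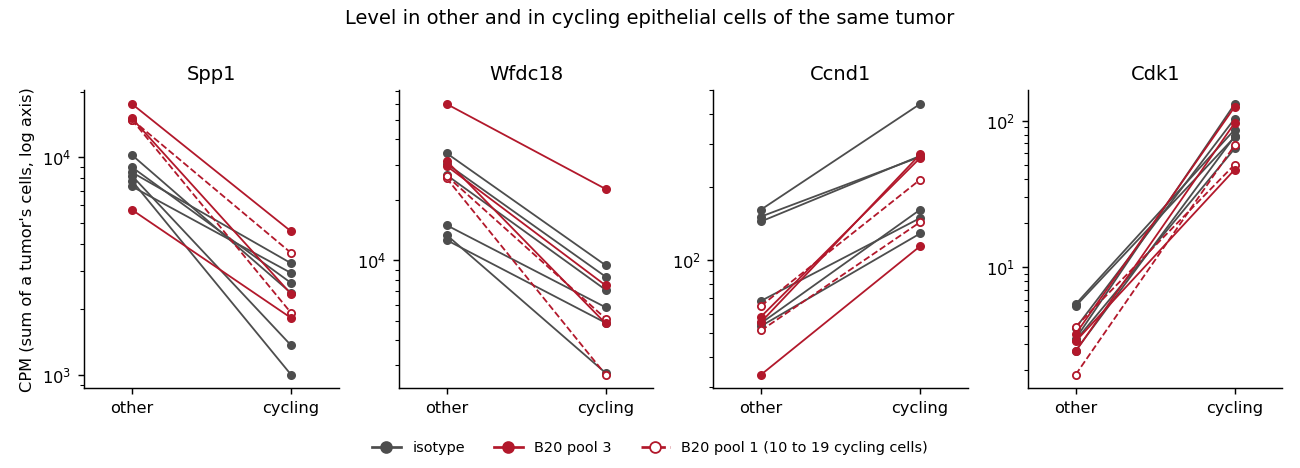
CPM (log axis) of Spp1, Wfdc18, Ccnd1 and Cdk1 in the other (left) and the cycling (right) epithelial cells of the same tumor, 1 line per tumor, isotype in gray and B20 in red, with the 2 tumors of B20 pool 1 dashed. Lines for Spp1 and Wfdc18 go down and those for Ccnd1 and Cdk1 go up in every tumor shown.

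Immediate-early and stress genes were also lower, 11 of 20 by the count and 17 in every tumor (median -1.03). Fos was at 718 against 1602 CPM, and Klf4 (-1.52), Junb (-1.3), Dusp1 (-1.28) and Jun (-1.20) were alike. The chaperones Hsp90aa1 (0.78) and Hspa8 (0.27) were higher in every tumor. Interferon response genes were counted lower in 2 of 15 cases (median -0.65), with Irf7 at -1.19 and Isg15 at -0.82. In B20 pool 3 tumor 3 Isg15 was instead higher in cycling cells, at 642 against 326 CPM. Of 11 genes of MHC class I presentation none was counted (median -0.27), and of 12 matrix and adhesion genes none was (median -0.45). Among 4 keratins Krt7 was counted lower (-1.05).

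Taken as a list, the hypoxia response genes showed no shift between the states. None of 34 genes was counted, 5 were higher and 5 lower in every tumor, and the summed level was 3695 CPM in cycling and 3623 CPM in other cells. The glycolytic enzymes Pgam1 (0.57) and Tpi1 (0.48) were higher, whereas Vegfa, the target of B20, was lower in all 9 tumors (-0.43, 22.6 against 35.8 CPM). Plin2 (-0.66) and Pfkp (-0.55) were also lower in every tumor. Ndrg1 had the largest difference (-1.10, 38.4 against 82.3 CPM) but was higher in 1 of 9 tumors and so was not counted.

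Outside the lists and clone names, the genes with the largest differences were Pclaf (4.3), a partner of the replication clamp, at 369 against 6.73 CPM, and Pbk (3.23), Cdca3 (3.16), Knstrn (2.78), Diaph3 (2.77), Lockd (2.70) and Dlgap5 (2.60), most of them of known mitotic expression. Rbp7, a retinoid binding protein, was at 184 against 38.6 CPM. The largest in the other direction were Slpi, a secreted protease inhibitor, at 14.7 against 190 CPM, Ly6d (-2.92), Bglap3 (-2.35), Wfdc12 (-2.25), Wfdc17 (-2.15), Ly6a (-1.93), Cebpd (-1.93), which encodes a transcription factor of involution and inflammation, and Cp (-1.90), ceruloplasmin. With all cells thinned, 371 genes were counted, of which 290 were among the 424.

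The next question was whether cycling cells differed between treatments. Only tumors with at least 20 cycling cells were tested, so 6 isotype tumors (332 cells) were set against 3 tumors of B20 pool 3 (80 cells), and every B20 value in these tests comes from 1 pool. The balance of replication to mitotic UMIs was not separated. Its log2 ratio was -0.83 ± 0.29 (SD, n = 6) and -0.79 ± 0.45 (SD, n = 3), a difference of 0.036 (exact permutation p = 0.881, smallest possible 0.0119), and the sign of the difference turned without isotype pool 2 (-0.12).

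The study's hypoxia score is the mean over Vegfa, Slc2a1 and Car9 of ln(1 + UMIs per 10000). In cycling cells it was 0.134, 0.189 and 0.178 in isotype pool 1, 0.0960, 0.104 and 0.141 in isotype pool 2, and 0.145, 0.148 and 0.221 in B20 pool 3. The groups overlapped, with means of 0.140 ± 0.0377 and 0.171 ± 0.0430 (exact permutation p = 0.333, adjusted p = 0.444). The treatment difference in cycling cells minus that in other epithelial cells was -0.029 (exact permutation p = 0.333, adjusted p = 0.444). In thinned cells it was -0.081 (exact permutation p = 0.0238, adjusted p = 0.0476), but the thinned score of B20 pool 3 tumor 1 was 0, at the level where single UMIs decide, so no change is read from it.

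Across genes, edgeR called 15 of 6846 in cycling cells (0.219%, adjusted p under 0.05), 12 higher and 3 lower under B20, whereas 666 had an unadjusted p under 0.05. In other epithelial cells of the same tumors 364 of 12498 (2.91%) were called, from summed libraries of 5618370 to 17117100 UMIs against 289670 to 1325740 UMIs in cycling cells. Without isotype pool 2 the number called was 583, and with the pool as a random term in limma voom it was 0. When tumors with at least 10 cycling cells entered, which adds B20 pool 1 tumors 1 and 2, it was 0 as well, with 527 at an unadjusted p under 0.05.

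Among the higher genes that met the naming rule, Isg15 and Bst2 had the largest fold changes. That rule also used the summed level of B20 pool 1, so the side on which this sum lay was set by the choice of genes. Isg15, a ubiquitin-like protein induced by interferon, was between 8.17 and 35.2 CPM in the isotype tumors (median 16.7) and at 96.8, 86.0 and 686 CPM in B20 pool 3, which was 3.90 higher on the log2 scale (SE 0.530, edgeR adjusted p = 0.00409). The groups did not overlap, and 1 tumor held by far the most. The B20 pool 1 tumors, outside the test, were at 111 and 20.4 CPM. Bst2 (tetherin), another such gene, was between 30.4 and 55.6 CPM and at 110, 91.5 and 184 CPM (1.52, SE 0.244, edgeR adjusted p = 0.0157), with 25.1 and 75 CPM in B20 pool 1. The first of these lay below every isotype tumor. Psmb8, a subunit of the immunoproteasome, rose by 1.02 (SE 0.196, edgeR adjusted p = 0.0397), and B20 pool 1 was at 53.8 and 109 CPM against 71.6 to 106 CPM in isotype tumors.

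The remaining named genes all changed by less than Isg15. Tagln2, an actin-binding protein, was at 344, 263 and 391 CPM in B20 pool 3 against 121 to 188 CPM (1.01, SE 0.174, edgeR adjusted p = 0.0175), and both B20 pool 1 tumors, at 172 and 187 CPM, lay inside the isotype range. Mrpl58, of the mitochondrial ribosome, rose by 0.84 over isotype tumors at 81.3 to 120 CPM, with 140 and 119 CPM in B20 pool 1. Hist1h1c, a linker histone, rose by 1.09 over isotype tumors at 46.4 to 79.8 CPM, with 68.1 and 92.0 CPM in B20 pool 1. It is a histone cluster gene like Hist1h1b, so its level under 3′ capture is uncertain too. H3f3b, a replication-independent histone gene, rose by 1.11 but its groups overlapped, 1842 to 2910 CPM against 2848 to 7889 CPM, and B20 pool 1 was at 2758 and 4194 CPM. Both lower genes were alike in the 3 B20 tumors. Hspa1b, an inducible heat shock protein, was at 25.2, 22.2 and 29.5 CPM against 55.1 to 103 CPM (-1.67, SE 0.283, edgeR adjusted p = 0.0175), and Homer2, a scaffold protein, at 31.0, 36.0 and 33.2 CPM against 60.6 to 108 CPM (-1.46, SE 0.253, edgeR adjusted p = 0.0175). In B20 pool 1 they were at 57.4 and 27.3 CPM and at 71.7 and 40.9 CPM, which overlaps the isotype range in 1 tumor each. Hspa1b and Hspa1a, and H3f3b and its processed copies, share sequence, so their split is uncertain. The remaining called genes did not meet the rule for named genes. For Dmkn, Lgals9, Crip1, S100a6 and Ifitm3, all called higher, the pool means were not all on the same side. Among these, Crip1 had the same edgeR adjusted p as Isg15 (0.00409). Spint1, called lower, averaged 4.82 log2 CPM, under the limit of 5.

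**Figure D5:**
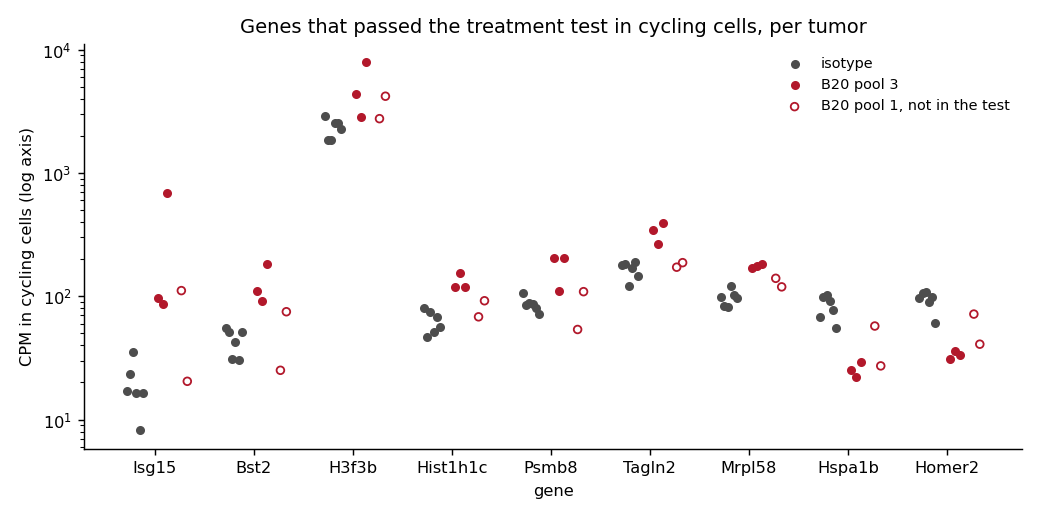
CPM in cycling cells (log axis) of the 9 named genes (x axis), isotype tumors in gray (n = 6), B20 pool 3 tumors in red (n = 3) and the 2 B20 pool 1 tumors, not in the test, as open circles. The summed level of B20 pool 1 was used in the choice of these genes. Isg15 is at 8.17 to 35.2 CPM in isotype and 86.0 to 686 CPM in B20 pool 3 tumors, and at least 1 open circle lies within the gray range for 7 of the 9 genes.

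The gene lists gave these counts beside a median of -0.003 over all genes. In the interferon list 10 of 11 tested genes had a positive fold change (median 1.20), 2 were called and 3 did not overlap between groups, where 6.15% of all genes did not overlap. In other epithelial cells the list median was 1.24 with 10 genes called, and the treatment difference between the states was called for none of them. All 9 tested genes of MHC class I presentation were positive (median 0.35) and Psmb8 was called.

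In the hypoxia list 26 of 28 were positive (median 0.53) and 9 did not overlap, where 6.15% of all genes did not. None was called, the smallest edgeR adjusted p being 0.174 for Bhlhe40. Ldha, lactate dehydrogenase, was at 754 to 1148 CPM in isotype and 1250 to 1542 CPM in B20 tumors (0.55, edgeR adjusted p = 0.239), and Vegfa at 12.8 to 28.6 CPM and 21.3 to 47.9 CPM (0.36, SE 0.349, edgeR adjusted p = 0.771). In other epithelial cells the hypoxia median was 0.55 with 9 called. Spp1 in cycling cells was at 1043 to 3260 CPM and 1980 to 4873 CPM (0.44, SE 0.303, edgeR adjusted p = 0.674).

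The cell cycle lists had no gene called. Over all genes only 0.219% were called, too few for the absence of calls to set these lists apart. Medians were 0.06 over 43 replication genes, 0.06 over 24 mitotic kinases, cyclins and checkpoint genes, -0.03 over 18 kinetochore genes and 0.04 over 25 spindle genes, with 31, 14, 8 and 13 positive. Chromosome structure genes had 5 of 18 positive (median -0.13) and DNA repair genes 5 of 13 (median -0.07). The growth and nucleolus list had 10 of 15 positive (median 0.12) and ribosomal proteins 68 of 77 (median 0.19). Of these, 4 and 13 did not overlap, where 6.15% of all genes did not, and none was called. In the milk list 7 of 14 were positive. With 3 B20 tumors from 1 pool, fold changes that miss the threshold do not show that the groups are alike.

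Finally, the treatment difference was compared between cycling and other epithelial cells of the same tumors, with the tumor as a fixed term. The edgeR interaction called 6 of 11569 genes (0.0519%), with 672 at an unadjusted p under 0.05. Without isotype pool 1 it called 11 genes, and with the B20 pool 1 tumors added it called 0, with 645 at an unadjusted p under 0.05. None of the 6 was called for treatment in either state alone.

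Ccnd1 was among them, with an interaction of 0.85 (SE 0.165, edgeR adjusted p = 0.0367). Its difference between cycling and other cells was 1.39, 0.78 and 0.85 in isotype pool 1, 1.03, 1.13 and 1.4 in isotype pool 2, and 1.5, 2.0 and 2.11 in B20 pool 3, so the groups did not overlap. The B20 pool 1 tumors were at 1.32 and 1.59. The treatment fold change was -0.03 in cycling cells and -0.93 in other cells. Dusp1, a phosphatase of the immediate-early response, had an interaction of 1.11 (SE 0.203, edgeR adjusted p = 0.0216). Its log2 difference, cycling minus other, was -1.74 to -1.14 in isotype tumors and -1.05 to -0.36 in B20 pool 3, while the B20 pool 1 tumors had differences of -2.98 and -1.32.

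For Wap the interaction was -1.55 (SE 0.215, edgeR adjusted p = 0.000748). Its level in other cells was 1680 CPM in B20 pool 3 tumor 1 and 85.7 to 432 CPM in the remaining tested tumors, so 1 tumor stood far above the rest. The Wap difference of cycling minus other cells was -0.94 to -0.20 in isotype tumors and -2.49, -1.64 and -1.18 in B20 pool 3. In B20 pool 1 it was -1.34 and -0.25, the latter within the isotype range. Tfrc, the transferrin receptor, and Fth1, ferritin heavy chain, are both genes of iron handling. Tfrc was higher in cycling cells of the 6 isotype tumors by 1.06 to 1.63, and in B20 pool 3 the differences were -0.31, 0.66 and 0.78 (interaction -1.35, SE 0.205, edgeR adjusted p = 0.00181). The difference of -0.31 was that of B20 pool 3 tumor 1. In its other cells Tfrc was at 221 CPM, against 37.6 to 70.4 CPM in the remaining tested tumors. Fth1 was at 0.034 to 0.41 in isotype tumors and at -0.47, -0.16 and -0.43 in B20 pool 3 (interaction -0.54, SE 0.0937, edgeR adjusted p = 0.0130), with processed copies that share its sequence. In B20 pool 1 the Tfrc differences were 1.37 and 0.46 and those of Fth1 were -0.0078 and -0.75. Tgfb2, a transforming growth factor, had an interaction of -1.16 (SE 0.229, edgeR adjusted p = 0.0424), with differences of -0.048 to 0.62 in isotype tumors, -0.49, -0.77 and -0.54 in B20 pool 3, and 0.28 and 0.30 in B20 pool 1. For Tgfb2 the pool outside the test thus lay within the isotype range.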

How the data were processed

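Single-cell suspensions were run on the 10x Chromium 3′ v3.1 platform with 3 tumors multiplexed per pool. The authors aligned and counted reads with Cell Ranger (6.1.2 per the matrix headers; mm10 per the submitters' processing notes, which also list bcl2fastq and Seurat 4.3.0) and deposited UMI counts without normalization, in a matrix for each tumor. Depth was 198806160 gene UMIs over 30340 cells. Tumors were grouped by the labels.

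The members and lists were chosen with earlier results of these data known. UMI counts were summed per tumor and state. Cells were thinned at random to 2500 UMIs where depth mattered. Treatment was tested with edgeR 4.0.16 (quasi-likelihood F test, TMM, filterByExpr, R 4.3.3, Benjamini-Hochberg at 0.05). CPM in those comparisons are TMM-scaled, elsewhere plain. Single values had exact two-sided permutation tests over all splits, adjusted over 4 tests. Exact binomial intervals came from scipy 1.17.1. Fold changes are log2, B20 minus isotype. CPM of added B20 pool 1 tumors were not TMM-scaled. P-values measure the spread between tumors, each from a different mouse by the labels' mouse identifiers. Alternatives used DESeq2 1.42.0 and limma 3.58.1. Scripts were tested on simulated counts.

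Genes were named by list (the members with the largest differences, plus those needed by role), by up to 8 genes per direction outside the lists with the same sign in every tumor, by up to 8 called treatment genes per direction whose log2 CPM averaged 5 or more and whose pool means did not cross between treatments, and by up to 5 interaction genes per direction. Clone names and mitochondrial genes were passed over. Spp1, Birc5, Vegfa and Ldha were added by role. No doublet caller was run. Doublets were addressed by leaving out cells over 15000 UMIs or under 90% own oligonucleotide UMIs. The study's classes of B20 tumors by hypoxia are not in the labels and were not compared.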

Additional observations from a re-analysis of the deposited data

Results flagged for a closer look

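Several values stood apart from the rest of their group or differed between the cell states. B20 pool 3 tumor 1 was the lowest B20 tumor for Spp1 in other epithelial cells, at 5730 CPM with the nearest of the 5 B20 tumors at 14873 CPM. The same tumor was the highest for Wfdc18, at 22675 CPM in cycling cells (nearest 7505 CPM) and at 60118 CPM in other cells (nearest 31279 CPM). For Fth1 the log2 difference of cycling minus other cells was 0.41 in isotype pool 1 tumor 2, and the nearest of the 6 isotype tumors was at 0.16. These are 4 of the 38 groups looked at, and chance alone sets apart about 1 in 20 groups.

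In 6 genes the treatment difference itself differed between cycling and other epithelial cells by the edgeR interaction. It was more positive in cycling cells for Dusp1 (1.11) and Ccnd1 (0.85), and more negative for Wap (-1.55), Tfrc (-1.35), Tgfb2 (-1.16) and Fth1 (-0.54). All B20 tumors in this test came from 1 pool.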

How the results depend on the processing

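No paired analysis was possible because the labels give no litter, batch or number shared by tumors of the 2 groups, and each pool held 1 treatment. The share of cycling cells stayed lower under B20 in all 16 alternatives (-3.0 to -0.964 percentage points) but lost its adjusted call in 7, and the cause was not tested. These were a rule at 8 UMIs (-1.35), own oligonucleotides of at least 90% (-1.42), pools as units (-2.09), leaving out tumors under 300 epithelial cells (-1.79), and leaving out isotype pool 2 (-1.13), B20 pool 1 (-2.16) or B20 pool 2 (-1.45). Leaving out each pool gave -3.0 to -1.13.

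The replication to mitosis difference ranged from -0.120 to 0.191 when a pool was left out and turned negative with a rule at 8 UMIs (-0.62), pools as units (-0.36) and tumors of at least 10 cycling cells (-0.24). The hypoxia score difference ranged from 0.0041 to 0.0574 when a pool was left out and was -0.038 in thinned cells. Its difference between the states was -0.0367 to -0.0207 when a pool was left out and -0.081 in thinned cells.

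The 15 calls of edgeR became 22 with DESeq2 (9 shared), 13 with RLE size factors (13 shared), 15 with counts summed per pool (1 shared), 132 with no filter on low counts, 3 in thinned cells and 7 with a rule at 8 UMIs, which left 1 B20 tumor, assumed to vary like the isotype tumors. They became 0 with limma voom and the pool as a random term (226 genes at an unadjusted p under 0.05). Leaving out a pool gave 15 to 583. The settings with tumors of at least 10 cycling cells were chosen after seeing the data. They gave 0 calls in edgeR (527 unadjusted), 0 in voom, 0 without cells over 15000 UMIs, and 2 without B20 pool 3 (0 shared). In these, Psmb8 turned to -0.0070 without B20 pool 3 and to -0.039 without cells over 15000 UMIs. The interaction called 59 genes with no filter, 13 in thinned cells, 4 with voom, 0 with tumors of at least 10 cycling cells, 9 of these without B20 pool 3 (0 shared) and 6 to 11 when a pool was left out. Dusp1 turned to -0.44 without B20 pool 3 in tumors of at least 10 cycling cells.

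The 424 genes past the fold between the states became 733 with a pseudocount of 1 CPM and 114 with 50 CPM, and 424 to 465 when a pool was left out. Of 260 list medians and 546 gene values over 13 alternatives, 30 and 64 moved beyond the spread over tumors, and the median of the CDK inhibitors and quiescence list, near 0, ranged from -0.20 to 0.0059. For every value but the share of cycling cells, leaving out B20 pool 1 or B20 pool 2 repeated the main result. Neither pool held a tumor with 20 cycling cells. These repeats are counted among the 13 alternatives and in the ranges over pools left out. A minimum of 40 cycling cells, leaving out cells over 15000 UMIs and leaving out B20 pool 3 left no B20 tumor with 20 cycling cells, so these gene tests were not run.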
